A study of Mus musculus with 9 samples.

Results

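The 6 genes described here, S100a4, S100a6, S100a8, S100a9, S100a10 and S100a11, encode S100 calcium-binding proteins. They were taken by name from the 17 S100 genes that the count matrices list. Their transcripts were counted by droplet single-cell RNA-seq in live CD11b+ cells that were sorted from the brains of female mice, labelled C57BL/6 and named C57BL/6J in the study's methods, at 5 months of age. CD11b is an integrin of myeloid cells, so the gate takes microglia together with monocytes, macrophages and neutrophils. The 3 Ctrl libraries came from untreated mice. The 3 D0 libraries came from mice fed PLX5622 in the diet at 1200 mg/kg for 14 days, and PLX5622 is an inhibitor of CSF1R, the receptor on which microglia depend for survival. The 3 D2 libraries came from mice given the same 14 days of PLX5622 and then 2 days of control diet. The groups were age-matched, the cells of all mice were collected on 1 day, and all brains were taken without the cerebellum, after perfusion, and were depleted of myelin. Each D0 and D2 library pooled 2 brains and each Ctrl library held 1, so pooling and treatment cannot be told apart. The study left the library D2-3 out, and so do the tests here, which use 8 libraries, with the values of D2-3 given apart.

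S100 proteins are small proteins with a pair of EF-hand loops. On binding calcium most of them open a surface that docks onto a target protein, and most work as dimers. S100a8 and S100a9 pair to form calprotectin, which fills the cytosol of neutrophils and acts on Toll-like receptor 4 when it is released. S100a4 binds non-muscle myosin, S100a6 binds the adaptor Cacybp, S100a11 binds Anxa1, and S100a10, which no longer responds to calcium, forms a complex with Anxa2 at the plasma membrane. In the brain the calprotectin genes are best known from infiltrating neutrophils.

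All 6 genes lie on mouse chromosome 3 (GRCm38, GENCODE vM21). S100a4 (ENSMUSG00000001020, chr3:90603771-90606045), S100a6 (ENSMUSG00000001025, chr3:90612882-90624181) and S100a8 (ENSMUSG00000056054, chr3:90668978-90670035) are on the plus strand, and S100a9 (ENSMUSG00000056071, chr3:90692632-90695721) is on the minus strand. These 4 genes fall within 91951 bases. S100a11 (ENSMUSG00000027907, chr3:93520488-93526287) and S100a10 (ENSMUSG00000041959, chr3:93555080-93564643), both on the plus strand, form a second pair further along the chromosome. S100a4 overlaps Gm42674 on the same strand, which the count matrices also list, so reads of S100a4 could have been split or dropped by the authors' counting. S100a11 has the processed copy S100a11-ps on another chromosome. The count matrices do not list that copy, so no UMIs were counted for it, and whether S100a11 reads were lost to it was not tested. The promoters of S100a4, S100a6, S100a8 and S100a9 are shown because these genes lie within 91951 bases and yet differed in the cell classes that held them. Each runs from 250 bases before the RefSeq start to 10 bases from it on (GRCm38.p6), read along the gene's own strand, and capitals mark every match on either strand to TATAAA, TTGCNNAA (the C/EBP core), TGANTCA (AP-1) or GAGGAA (the PU.1 core).
S100a4 (chr3:90603520-90603779, plus strand): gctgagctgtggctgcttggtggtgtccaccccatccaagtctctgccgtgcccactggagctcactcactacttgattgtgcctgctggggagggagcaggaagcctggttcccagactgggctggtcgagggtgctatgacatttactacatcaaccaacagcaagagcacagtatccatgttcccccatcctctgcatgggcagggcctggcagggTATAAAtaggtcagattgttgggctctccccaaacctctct
S100a6 (chr3:90612644-90612903, plus strand): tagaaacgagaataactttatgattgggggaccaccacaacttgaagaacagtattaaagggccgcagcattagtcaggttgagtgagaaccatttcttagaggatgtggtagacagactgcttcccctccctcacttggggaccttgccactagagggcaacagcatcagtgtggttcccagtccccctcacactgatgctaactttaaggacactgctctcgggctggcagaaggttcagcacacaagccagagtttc
S100a8 (chr3:90668821-90669080, plus strand): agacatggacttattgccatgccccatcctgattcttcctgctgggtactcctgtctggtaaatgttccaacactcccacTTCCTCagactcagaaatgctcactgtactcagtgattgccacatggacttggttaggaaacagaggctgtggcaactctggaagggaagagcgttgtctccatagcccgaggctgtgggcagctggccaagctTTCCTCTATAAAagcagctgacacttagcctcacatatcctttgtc
S100a9 (chr3:90695712-90695971, minus strand): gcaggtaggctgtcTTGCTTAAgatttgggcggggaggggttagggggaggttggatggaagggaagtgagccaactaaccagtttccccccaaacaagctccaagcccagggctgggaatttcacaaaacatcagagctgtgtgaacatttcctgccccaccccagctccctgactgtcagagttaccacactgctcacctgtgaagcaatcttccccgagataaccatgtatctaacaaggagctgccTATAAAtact
TATAAA began 31 bases before the start of S100a4 and 30 bases before that of S100a8, and lay at the annotated start of S100a9. It was not found in the windows of S100a6 and S100a11, and 12.66% of 32851 RefSeq promoters hold it. The C/EBP core was found in S100a9 once (9.851% of promoters hold it). The PU.1 core was found 2 times in S100a8, with one match directly before TATAAA, and once in S100a11 (24.11%), and AP-1 was found 2 times in S100a11 (7.026%). A match is a stretch of letters and not a measured binding site. RefSeq gave a promoter for 5 of the 6 genes.

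The 9 libraries held 2875 to 5721 barcodes and 20257894 to 61230741 UMIs each, and pairs of libraries shared 1 to 8 barcodes. After the study's limits on cells, 28655 cells of the 8 libraries were clustered without any S100 gene, and clusters were named from other markers. Microglia-like cells numbered 22069, neutrophil-like 1172, endothelial-like 904, border-associated macrophage-like (BAM-like) 587, monocyte-like 519, mural-like 303, ependymal-like 193, astroglial-like 149 and lymphoid-like 124. One cluster of 607 cells, led by H2-Aa, H2-Eb1 and Cd209a, was left without a cell type name and is called MHC-II-high. A cluster of 2028 cells with a median of 1712 UMIs is called low-UMI. Neutrophil-like cells made up 0.352% to 3.38% of a Ctrl library. Their share ran from 2.48% to 10.3% over the D0 libraries and was 2.19% and 6.58% in the 2 of D2. In D2-3 they were 13.9%, and 533 of its 608 microglia-like cells were placed in the mitotic cluster. Levels below are CPM, in which the UMIs of a gene summed over a class in a library are scaled by all UMIs of that sum, and a summed level cannot tell fewer expressing cells from less RNA per cell.

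The 6 genes fell into different sets of cell classes, shown in the plot of levels per class. S100a8 and S100a9 were highest in neutrophil-like cells, at 93104 ± 27359 CPM of S100a8 and 132640 ± 38077 CPM of S100a9 (SD, n = 7 libraries with at least 20 such cells). Neutrophil-like cells held 94.2% to 99.3% of the S100a8 UMIs of a library. Monocyte-like cells had 412 ± 733 CPM of S100a8 and 429 ± 876 CPM of S100a9 (n = 7), a wide spread between libraries. S100a6 and S100a11 were highest in neutrophil-like cells as well, at 4564 ± 988 CPM and 4498 ± 1014 CPM (n = 7). S100a4 and S100a10 were near the bottom of their range in neutrophil-like cells, at 4.12 ± 3.47 CPM and 6.44 ± 8.05 CPM (n = 7).

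S100a4, the myosin-binding member, was highest in monocyte-like cells at 1186 ± 140 CPM (n = 7). Lymphoid-like cells followed at 986 ± 218 CPM (n = 2) and the MHC-II-high cluster at 677 ± 148 CPM (n = 7), and the mean ± SD ranges of neighbours among these 3 met. All other classes were at 32.6 CPM or lower, with microglia-like cells at 15.3 ± 18.0 CPM (n = 8). In monocyte-like cells S100a4 was at 1182 and 1152 CPM in the Ctrl libraries with 20 such cells, 1037, 1086 and 1466 CPM in D0, and 1135 and 1246 CPM in D2, so the groups overlapped.

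S100a6, the Cacybp-binding member, ran from neutrophil-like cells through lymphoid-like (2721 ± 374 CPM, n = 2), monocyte-like (1977 ± 530 CPM, n = 7) and MHC-II-high cells (1433 ± 222 CPM, n = 7) to mural-like (158 ± 107 CPM, n = 6) and endothelial-like cells (34.6 ± 22.99 CPM, n = 8). Microglia-like cells were last of the 11 classes at 10.9 ± 13.4 CPM (n = 8), and their range met that of BAM-like cells at 20.8 ± 22.3 CPM (n = 5). The neutrophil-like range met no other.

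S100a10, the partner of Anxa2, was highest in lymphoid-like cells at 1524 ± 187 CPM (n = 2), above MHC-II-high cells at 699 ± 61.9 CPM and monocyte-like cells at 613 ± 269 CPM (n = 7 each). Endothelial-like cells had 98.5 ± 23.1 CPM and microglia-like cells 18.3 ± 4.61 CPM (n = 8 each). S100a11, the partner of Anxa1, was at 744 ± 135 CPM in lymphoid-like, 689 ± 106 CPM in MHC-II-high and 650 ± 210 CPM in monocyte-like cells, with ranges that met. It was also present in the vessel wall, at 432 ± 76.1 CPM in mural-like (n = 6) and 206 ± 46.6 CPM in endothelial-like cells (n = 8), and was lowest in microglia-like cells at 7.31 ± 2.62 CPM (n = 8).

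**Figure D1:**
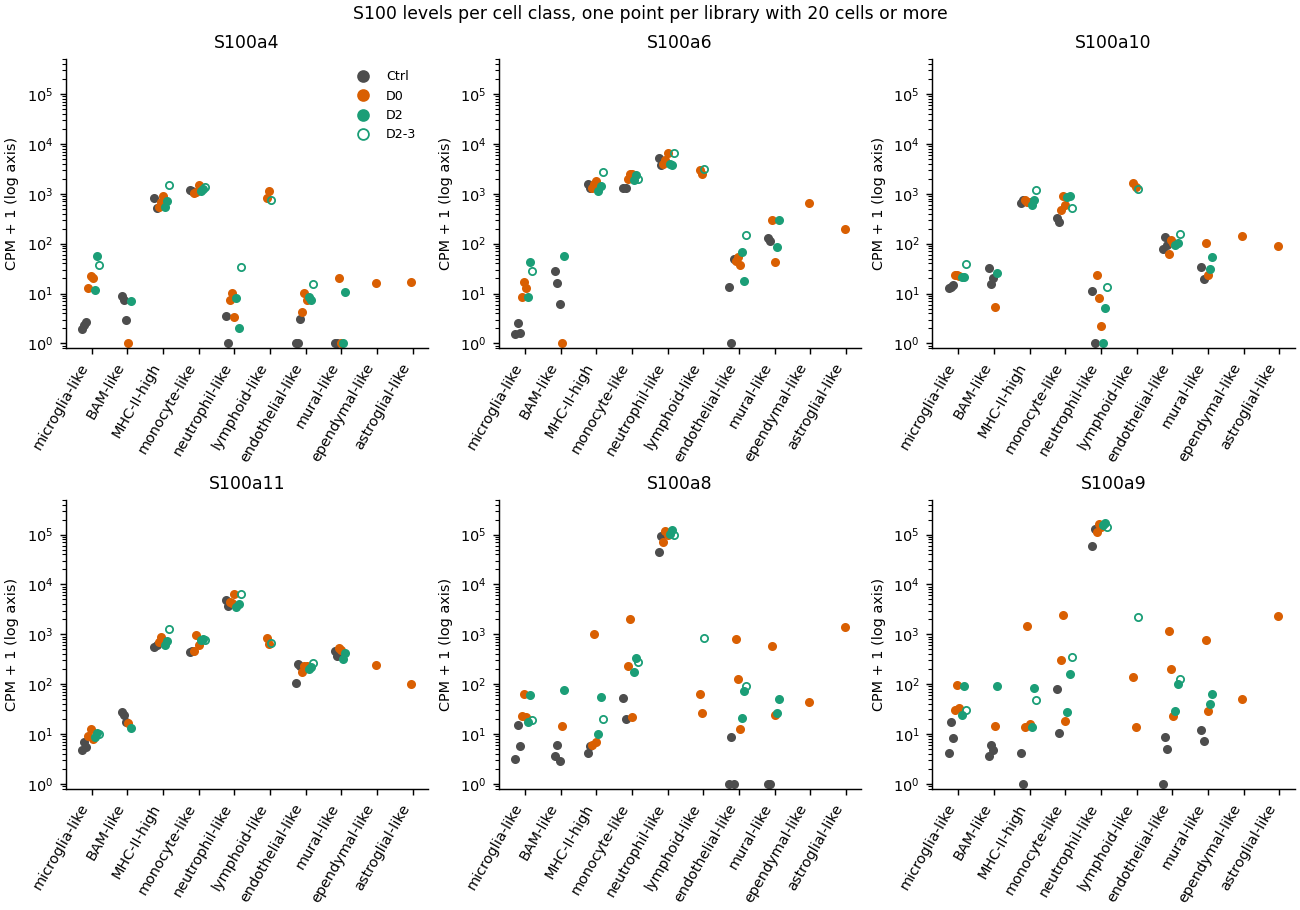
CPM + 1 on a log axis for each of the 6 S100 genes (panels) in 10 cell classes (x axis). Each point is 1 library with at least 20 cells of the class, coloured by group, with D2-3 as an open circle. S100a8 and S100a9 stand at about 93104 and 132640 CPM in neutrophil-like cells, while S100a4 and S100a10 are low there and high in monocyte-like, MHC-II-high and lymphoid-like cells.

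Across 60 sums of a class in a library and 4188 genes, the genes whose log levels ran most like those of each member sorted by the same classes. The sums share libraries and classes, so Pearson's r is a description with no test. Retnlg, Lcn2 and Wfdc21, all neutrophil granule or secreted genes, were most like S100a8 (r = 0.972, 0.948 and 0.941) and S100a9 (0.974, 0.941 and 0.942). Anxa1 and Plp2 were among the 3 most like both S100a6 (r = 0.932 and 0.927) and S100a11 (0.921 and 0.910), with Anxa2 second for S100a11 (0.920). Itgb7, an integrin of leukocytes, and H2afy, a histone variant, were most like S100a4 (0.928 and 0.918), and both were also among the 3 for S100a10 (0.860 and 0.889), after Tmsb10 (0.896). Between members, r was 0.992 for S100a8 with S100a9, 0.882 for S100a6 with S100a11, 0.872 for S100a4 with S100a10 and −0.131 for S100a4 with S100a9.

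In microglia-like cells, S100a4, S100a6, S100a10 and S100a11 were all called higher in D0 and D2 than in Ctrl, S100a4 and S100a6 by the larger amounts. S100a4 was at 0.982, 1.34 and 1.63 CPM in the 3 Ctrl libraries, 11.8, 21.0 and 19.7 CPM in D0, and 10.8 and 55.3 CPM in D2. Every treated library was above every Ctrl library, and the 2 D2 libraries were one at the level of the lowest D0 library and one above all others. These levels rested on 25 to 40 UMIs in a Ctrl library and 213 to 753 in a treated one. The edgeR log2 fold change was 3.95 (SE 0.60, adjusted p = 0.00182) for D0 and 4.76 (SE 0.64, adjusted p = 0.000895) for D2.

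S100a6 was at 0.566, 1.60 and 0.612 CPM in Ctrl, 7.65, 15.7 and 12.003 CPM in D0, and 7.64 and 41.1 CPM in D2. As for S100a4, D2-2 was far above D2-1 and every treated library was above every Ctrl library. The log2 fold change was 3.95 (SE 0.69, adjusted p = 0.00402) for D0 and 4.88 (SE 0.73, adjusted p = 0.00168) for D2. The calls of S100a4 and S100a6 held without any 1 library, and those of S100a6 were lost without an upper limit on UMIs per cell (2.70 and 3.02, adjusted p = 0.0688 and 0.0689). In the sum of all kept myeloid cells the D2 call of S100a6 was lost too (2.04, adjusted p = 0.0696), as were both calls of S100a4.

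S100a10 was at 12.1, 12.6 and 14.1 CPM in Ctrl, 22.6, 22.8 and 21.3 CPM in D0, and 20.4 and 20.9 CPM in D2, so the treated libraries were close to each other and the groups did not overlap. Its log2 fold change was 0.99 (SE 0.13, adjusted p = 0.000688) for D0 and 0.78 (SE 0.14, adjusted p = 0.00507) for D2. The D0 call of S100a10 was lost in 2 of the settings tried (adjusted p = 0.115, with D2-3 in the fit, and 0.321). Its D2 call was lost in 1 setting (log2 1.11, adjusted p = 0.497). S100a11 was at 3.89, 5.82 and 4.57 CPM in Ctrl, 7.96, 11.9 and 7.02 CPM in D0, and 7.80 and 9.48 CPM in D2. The log2 fold change of S100a11 was 1.14 (SE 0.26, adjusted p = 0.0161) for D0 and 0.96 (SE 0.30, adjusted p = 0.0492) for D2. The D0 call of S100a11 was lost without Ctrl-3 (adjusted p = 0.0592) and without D0-2 (0.0678), and its D2 call without Ctrl-1, Ctrl-3, D0-1, D2-1 or D2-2 (0.0526 to 0.239).

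S100a8 was at 2.19, 13.9 and 4.73 CPM in Ctrl microglia-like cells, 22.3, 63.2 and 20.8 CPM in D0, and 16.2 and 61.1 CPM in D2. S100a9 was at 3.21, 16.6 and 7.39 CPM in Ctrl, 28.9, 96.6 and 32.1 CPM in D0, and 23.3 and 90.6 CPM in D2. The highest Ctrl library and the lowest treated ones were close for both genes. The log2 fold change of S100a8 was 2.60 (SE 0.76, adjusted p = 0.0396) for D0 and 2.60 (SE 0.81, adjusted p = 0.0525) for D2, and that of S100a9 was 2.77 (SE 0.74, adjusted p = 0.0289) and 2.76 (SE 0.79, adjusted p = 0.0377). Without D0-2 the D0 values of S100a8 and S100a9 were 1.82 and 1.93 and neither was called (adjusted p = 0.159 and 0.117), and the same calls were lost without Ctrl-1 or without Ctrl-3 (0.0605 to 0.126). The D2 call of S100a9 was lost without Ctrl-1, Ctrl-3 or D2-2, where the value was 1.44 (adjusted p = 0.352). That of S100a8 was gained without Ctrl-2, D0-2 or D2-1 (adjusted p = 0.0227 to 0.0423).

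All 6 genes were called higher in D0, where 12.2% of the 12403 genes tested were called higher, and 5 of 6 in D2, where 10.8% were. The median log2 fold change of the 6 was 2.68 in D0 and 2.68 in D2, beside −0.05 and −0.03 over all genes tested. Both comparisons share the 3 Ctrl libraries. Between D2 and D0, edgeR called none of the 12403 genes (0%, with 840 at an unadjusted p under 0.05), and DESeq2 called 10 higher and 17 lower, none of them a member. The D2 to D0 value of S100a4 was 0.81 (SE 0.54) and that of S100a6 0.93 (SE 0.61), and without D2-2 they were −0.84 and −0.77. S100a10 was at −0.21 (SE 0.15) and S100a11 at −0.17 (SE 0.29).

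**Figure D2:**
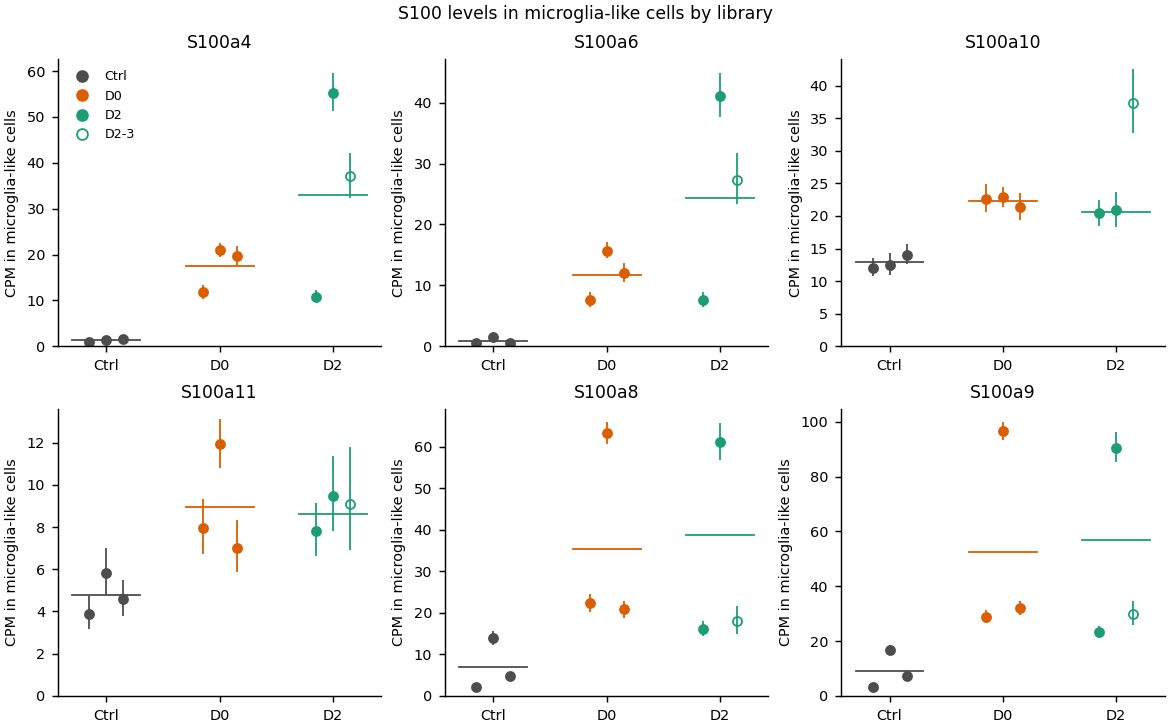
CPM in microglia-like cells by group for each S100 gene (panels, linear axes). Points are libraries with exact 95% Poisson intervals of the UMI count, which cover counting error only, and horizontal lines are group means without D2-3 (open circle). S100a10 is tight in D0 (21.3 to 22.8 CPM), while S100a4 differs between D2-1 and D2-2 (10.8 and 55.3 CPM).

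Summed markers of other cells differed between these groups too, in both directions. In microglia-like sums the 12 monocyte markers together were at 27.0 to 30.9 CPM in Ctrl, 33.8 to 43.6 CPM in D0 and 48.3 to 58.4 CPM in D2, with at most 1 of 12 at 0 in a library. The 10 microglia markers together were at 26440 to 31230, 18380 to 20130 and 15510 to 16080 CPM. The sum of the 12 lymphoid markers was lower after treatment, at 74.7 to 83.0, 55.7 to 66.3 and 57.6 to 66.9 CPM. Fewer of these 12 were at 0 after treatment, with 8 in a Ctrl library, 4 to 5 in D0 and 3 to 4 in D2. The 8 dendritic cell markers were at 295 to 404.4, 212.5 to 302.7 and 188.5 to 207.3 CPM. For the sum of the 12 neutrophil markers, Ctrl (208 to 257 CPM) and D0 (148.1 to 251.9 CPM) overlapped, though their median log2 fold change in D0 was 2.65. Few genes carried these sums. In the looser set of cells defined below, 11 of 12 neutrophil and 10 of 12 lymphoid markers were at 0. The Ctrl sums there were still 203.8 to 252.2 and 72.5 to 83.6 CPM. Of the dendritic cell markers 6 of 8 were at 0 there, with Ctrl sums of 292.8 to 403.5 CPM. Of the monocyte markers 10 of 12 were at 0. Those left summed to 20.25 to 25.28 CPM in Ctrl, 15.02 to 17.5 CPM in D0 and 20.51 to 20.89 CPM in D2, without the rise of the whole list. So the sums do not give the direction of most markers on the neutrophil, lymphoid, dendritic cell or monocyte list. The part of any of these lists in the rise of S100a4 and S100a6 was not tested. The planned removal of every cell with a UMI of any marker of other myeloid or lymphoid cells left 1166 cells. These were too few for a test of S100a4 or S100a6, and a looser rule was set after this was seen. In 16857 of the 22069 microglia-like cells, those with no UMI of 46 markers of other myeloid and lymphoid cells that were under 5 CPM in Ctrl, S100a4 was still higher in D0 (log2 3.55, adjusted p = 0.00255) and D2 (4.18, adjusted p = 0.00168). S100a6 was too (3.87, adjusted p = 0.00222, and 4.62, adjusted p = 0.00133).

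The version of the counting software in the file headers (3.0.2 or 3.1.0) differed within Ctrl and, counting D2-3, within D2. Of the 6 libraries with version 3.0.2, Ctrl-1 was the one control, and at 0.982 CPM of S100a4 and 0.566 CPM of S100a6 it was below all 5 treated libraries of that version. With the version as a term, the D0 values were 4.44 for S100a4, 4.67 for S100a6, 1.16 for S100a10 and 1.504 for S100a11, all still called. S100a8 and S100a9 were not called in D0 with this term (adjusted p = 0.0529 and 0.0502), nor were S100a8, S100a9 and S100a11 in D2 (0.0598 to 0.0729).

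More microglia-like cells carried the transcripts after treatment. S100a4 was seen in 0.655%, 1.12% and 1.15% of Ctrl cells, 4.23%, 7.50% and 8.13% of D0 cells, and 4.195% and 11.6% of D2 cells. In endothelial-like cells, a class with little S100a4, the share was 0%, 0% and 1.52% over the Ctrl libraries, 1.06%, 3.00% and 0.746% over those of D0, and 2.33% and 1.44% over those of D2, with a median depth of 3646 UMIs. After each cell was thinned to 2000 UMIs, S100a4 was left in 0.189% to 0.379% of Ctrl microglia-like cells, 1.51% to 2.67% in D0, and 1.01% and 4.49% in D2. The S100a4 groups did not overlap, and the exact permutation test over libraries (two-sided) gave p = 0.1 for each comparison, the smallest it can give here.

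The same exact permutation test gave p = 0.1 for the other 3 genes. S100a6 was seen in 0.427% to 0.884% of Ctrl, 2.45% to 6.21% of D0, and 3.05% and 10.7% of D2 microglia-like cells, and S100a6 after thinning in 0.0953% to 0.379%, 1.13% to 1.76%, and 1.01% and 3.86%. S100a10 was seen in 8.03% to 9.68% of Ctrl, 11.1% to 17.3% of D0, and 11.2% and 12.5% of D2 cells, and S100a10 after thinning in 2.36% to 3.03%, 3.80% to 4.06%, and 3.81% and 3.86%. S100a11 was seen in 2.87% to 4.14%, 4.16% to 9.24%, and 4.52% and 6.98%. Ctrl and D0 nearly met for S100a11, and these shares are unthinned, so depth is not taken into account for this gene. The median depth of microglia-like cells was 6492 to 7868 UMIs in Ctrl and 5344 to 10447 UMIs in treated libraries.

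A large share of the S100a4 and S100a6 transcripts of treated microglia-like cells sat in few cells. No Ctrl cell had 3 or more S100a4 UMIs. Such cells numbered 15, 73 and 40 in the D0 libraries and 19 and 84 in D2, and in D2-2 they were 5.43% of the cells and held 82.9% of the S100a4 UMIs. In D0-1, D0-2 and D0-3 they held 40.4%, 66.7% and 64.9% of the S100a4 UMIs, and in D2-1 38.0%. For S100a6 the cells with 3 or more UMIs numbered 11, 44 and 29 in D0 and 13 and 63 in D2, and 1 in all of Ctrl, and they held 49.3%, 61.0% and 75.98% of the S100a6 UMIs in D0 and 37.1% and 75.4% in D2. S100a10 was spread more evenly: cells with 3 or more S100a10 UMIs held 2.61% to 6.38% of its UMIs in Ctrl and 7.94% to 18.4% in D0 and D2.

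The cells with 3 or more S100a4 UMIs, chosen by that count and described without a test, also held S100a6 at 166 to 276 CPM in D0 and D2, beside 4.92 to 15.1 CPM in the other microglia-like cells of the same libraries. S100a10 was at 31.3 to 67.0 CPM in them, beside 19.6 to 22.3 CPM. S100a9 was not higher in them, at 10.3 to 72.0 CPM beside 23.4 to 97.8 CPM. They carried Tmem119, a membrane protein that marks microglia, at 158 to 529 CPM, beside 241 to 912 CPM in the other cells. P2ry12, the purinergic receptor of homeostatic microglia, was at 215 to 444 CPM, below the 575 to 1378 CPM of the other cells. The monocyte genes Ccr2, Ly6c2 and Plac8 were at 0 to 5.15 CPM, 0 to 2.35 CPM and 0 to 12.8 CPM, beside 2.17 to 3.69, 0.307 to 0.952 and 3.12 to 12.7 CPM in the other cells. H2-Aa, a leading gene of the MHC-II-high cluster, in which S100a4 was high, was at 162 against 4.92 CPM in D2-1 and 29.5 against 14.1 CPM in D0-2, and was lower than in the other cells in D0-1, D0-3 and D2-2. Its part in the S100a4 of these cells was not tested. These cells were deep, with medians of 11552 to 17644 UMIs against 5329 to 10276 UMIs, and doublets among them were not tested.

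In D0 and D2, cells that held a UMI of Lgals3, the gene of the galectin MAC2 on which the study centred, had more S100a4 than those without. S100a4 was at 29.5, 66.7 and 81.1 CPM in Lgals3-positive and 10.1, 15.8 and 15.96 CPM in Lgals3-negative microglia-like cells of D0, and at 38.6 and 130 against 7.84 and 38.2 CPM in D2. S100a6 followed, at 25.9, 59.3 and 74.7 against 5.86, 10.7 and 8.18 CPM in D0 and 28.0 and 116 against 5.49 and 24.1 CPM in D2. S100a10 was at 20.05, 24.3 and 31.0 against 22.9, 22.7 and 20.7 CPM in D0, so the order of the 2 sets changed between libraries. Ctrl libraries had 30, 22 and 41 Lgals3-positive cells and did not show the difference in each library. S100a4 was at 0, 4.22 and 2.27 CPM in these against 0.993, 1.30 and 1.62 CPM in the others. S100a6 was at 0 CPM in the Lgals3-positive cells of each Ctrl library, against 0.573, 1.62 and 0.623 CPM. The depths of the 2 sets were not compared, and no test was made on this split.

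Microglia-like cells formed 10 clusters, named here by their leading genes, and within 2 of them S100a4 and S100a6 were called higher in D2. Both genes were low in Ctrl, and these calls are limited by the filter on low counts, as given below. In the cluster of ribosomal genes (1601 cells), S100a4 was at 0, 0 and 3.97 CPM in Ctrl, 7.18, 13.2 and 21.9 CPM in D0, and 0 and 90.4 CPM in D2, where the fit gave 5.45 (adjusted p = 0.0497), a value that D2-2 carried. In the interferon cluster led by Ifit3 (679 cells), S100a4 was at 1.44 and 4.98 CPM in Ctrl, 14.2, 12.1 and 11.3 CPM in D0, and 20.9 and 29.9 CPM in D2, with a D2 value of 3.22 (adjusted p = 0.0180). S100a6 was called in the same 2 clusters in D2, at 6.57 (adjusted p = 0.0126) and 3.63 (adjusted p = 0.0297). In the ribosomal cluster its mean was 0.44 CPM in Ctrl and 37.5 ± 42.9 CPM in D2 (SD, n = 2), so the 2 D2 libraries were far apart. In the interferon cluster its mean was 1.44 ± 2.04 CPM in Ctrl and 22.0 ± 2.22 CPM in D2 (n = 2 each).

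S100a4 passed the filter on low counts in 5 of the 8 clusters fitted in D0 and 4 of the 5 fitted in D2. S100a4 and S100a6 are near 0 in Ctrl, so they could pass mainly where treated libraries were high. Neither their direction nor their calls in the clusters that passed are support. S100a4 was called in 0 of the 5 in D0, with 4 at an unadjusted p under 0.05, and in 2 of the 4 in D2. S100a6 passed in 6 clusters in D0 and was called in 0, with 3 at an unadjusted p under 0.05, and it was called in 2 of 4 in D2. The share of all genes called higher in D2 was 0.159% in the ribosomal and 1.23% in the interferon cluster, and 1.34%, 0.804% and 1.68% in clusters 1, 2 and 8. In D0 it was 0.0376%, 0.159%, 0.337%, 0.0597%, 0.0398%, 1.79%, 2.49% and 0.745% in clusters 1, 2, 3, 4, 7, 8, 9 and 11. S100a10 was tested in 7 clusters in D0 (median log2 0.35) and 4 in D2 (0.26) and called in 0, with 2 and 0 at an unadjusted p under 0.05. Its D0 values within clusters ran from 0.027 to 2.29, the highest in cluster 9 and the other 6 below 0.99, the value over all microglia-like cells. S100a11 was tested in 3 and 2 clusters and called in 0.

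The clusters led by P2ry12 and Bank1 or by Klf2 and Jun had little S100a4 after treatment as well. In the larger P2ry12 cluster (3438 cells) S100a4 was at 0.701, 1.44 and 2.03 CPM in Ctrl and 0, 0 and 1.61 CPM in D0. In the Klf2 cluster (3090 cells) it was at 1.48 to 1.85 CPM in Ctrl and 9.45, 1.93 and 2.30 CPM in D0. The mitotic cluster led by Top2a and Mki67 (1658 cells), which had 2 to 7 cells in a Ctrl library and so no Ctrl level, had the highest S100a10, at 49.7, 32.7 and 28.6 CPM in D0 and 36.2 and 25.1 CPM in D2, and S100a4 at 19.5 to 46.8 CPM. Without it, the D0 values over microglia-like cells were 3.86 for S100a4, 3.82 for S100a6 and 0.88 for S100a10, all called, and 1.00 for S100a11, 2.35 for S100a8 and 2.51 for S100a9, not called (adjusted p = 0.0519 to 0.111).

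**Figure D3:**
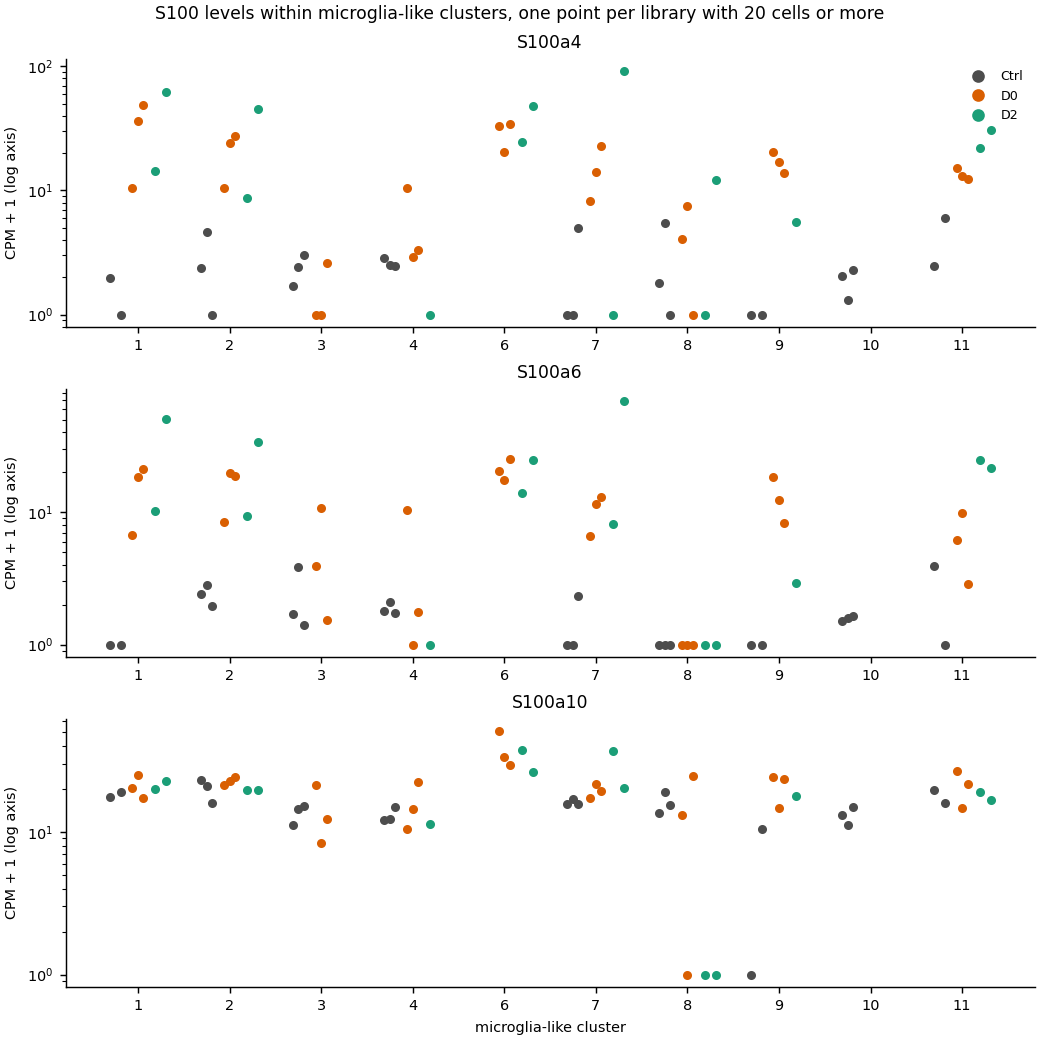
CPM + 1 on log axes for S100a4, S100a6 and S100a10 (panels) within the 10 microglia-like clusters (x axis), 1 point per library with at least 20 cells, coloured by group. Clusters 3 and 10 are those led by P2ry12 and Bank1, 4 that led by Klf2, 6 the mitotic, 7 the ribosomal and 11 the interferon cluster. S100a4 and S100a6 of treated libraries are above Ctrl in clusters 1 and 2, S100a4 in cluster 3 is not (0.701 to 2.03 CPM in Ctrl and 0 to 1.61 CPM in D0), and S100a10 is highest in cluster 6.

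In the 6 other classes with enough libraries, 3 of the 64 gene and comparison pairs tested were called. In monocyte-like cells S100a10 was at 327 and 271 CPM in the Ctrl libraries with 20 such cells, 468, 887 and 586 CPM in D0, and 857 and 893 CPM in D2. Its D2 value was 1.51 (SE 0.29, adjusted p = 0.0421; 0.244% of genes were called higher in that comparison), and its D0 value was 1.16 (adjusted p = 0.0874, with 0.0488% of genes called higher). The Ctrl library with 11 such cells had 594 CPM of S100a10, and with it the D2 value was 1.21 and not called (adjusted p = 0.138). It was also not called without Ctrl-2, Ctrl-3, D2-1 or D2-2 (adjusted p = 0.155 to 0.329). S100a6 in monocyte-like cells was at 0.89 in D0 (adjusted p = 0.0822) and 0.73 in D2 (adjusted p = 0.117), and S100a4 was at 0.080 and 0.0021.

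The other 2 calls, of S100a4 and S100a8, were in the low-UMI cells in D0, where 1.71% of genes were called higher. Both genes were near 0 in Ctrl in that class. They could pass the filter on low counts mainly where treated libraries were high, so these calls are not support. S100a4 was at 0, 0 and 4.99 CPM there in Ctrl, 8.28, 67.6 and 97.6 CPM in D0, and 5.59 and 76.9 CPM in D2 (D0 log2 5.96, SE 1.51, adjusted p = 0.0498). S100a8 was at 2.98, 0 and 4.99 CPM in Ctrl and 105, 144 and 17.5 CPM in D0 (log2 4.82, SE 1.07, adjusted p = 0.0297). The S100a4 call was lost without any one of Ctrl-1, Ctrl-2, Ctrl-3, D0-2 or D0-3 (adjusted p = 0.0870 to 0.377), and the S100a8 call without Ctrl-1, Ctrl-2, Ctrl-3 or D0-2 (0.0822 to 0.261). In neutrophil-like cells 0 of 4 members tested were called by edgeR, with 0 at an unadjusted p under 0.05, where 0.0219% of genes in D0 and 0.527% in D2 were called higher, and the values of the 4 lay between 0.47 and 0.78 (D0) or 0.17 and 1.06 (D2). In endothelial-like cells S100a10 was at −0.10 in D0 and −0.04 in D2 and S100a11 at 0.11 and 0.14, none called, with 0.0122% and 0.0486% of genes called higher. No member was called in mural-like cells (0% of genes higher in D0 and D2) or in MHC-II-high cells (0.0138% in each), though 2 and 3 members had an unadjusted p under 0.05 in D0. DESeq2 called no member in neutrophil-, mural-like or MHC-II-high cells, and in endothelial-like cells it called S100a9 in D0 (adjusted p = 0.0223). S100a9 was near 0 in Ctrl endothelial-like cells (mean 3.92 CPM), so the same limit of the filter applies.

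Of 12 partners of S100 proteins, all were tested in microglia-like cells, and 5 rose in D0, where 12.2% of all genes were called higher, and 6 in D2, where 10.8% were, with 0 lower in either. Anxa2, the annexin that holds S100a10 at the membrane, was at 1.08 ± 0.23 CPM in Ctrl, 11.3 ± 1.60 in D0 and 18.4 ± 13.2 in D2 (SD, n = 3, 3 and 2), a log2 change of 3.57 (edgeR adjusted p = 0.000354) and 4.18 (0.000220). Anxa5 rose by 1.33 and 1.81 and Anxa4 by 0.61 and 0.77. Anxa6 rose by 0.48 (edgeR adjusted p = 0.0475) and 0.54 (0.0464). Anxa1 was called at 2.89 (edgeR adjusted p = 0.0216) and 3.61 (0.0100), though its mean level was 0.137 CPM in Ctrl and 1.71 CPM in D2. At that Ctrl level it could pass the filter on low counts mainly where treated libraries were high. The direction and calls of Anxa1, counted above, are therefore not support. Sugt1, a co-chaperone that binds S100a6, was called in D2 (0.55, adjusted p = 0.0444). The median over the 12 was 0.42 in D0 and 0.54 in D2.

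Of 5 receptors of extracellular S100 proteins, 1 rose and 1 fell, where 7.38% of genes in D0 and 7.72% in D2 were called lower. Cd36, a scavenger receptor, rose by 4.86 in D0 (edgeR adjusted p = 0.00182) and 5.32 in D2 (0.00144), with means of 0.376 ± 0.113, 9.43 ± 1.78 and 14.2 ± 15.3 CPM over Ctrl, D0 and D2 (n = 3, 3 and 2). Being near 0 in Ctrl, Cd36 could pass the filter on low counts mainly where treated libraries were high. Its direction and calls are therefore not support. Tlr4, the Toll-like receptor of calprotectin, fell by 0.59 in D0 (edgeR adjusted p = 0.0127) and by 0.73 in D2 (0.00856), from 49.4 ± 5.78 CPM to 28.5 ± 3.59 and 27.6 ± 5.22. Ager, Ly96 and Bsg were not called. Of the 11 other S100 genes 3 passed the filter in microglia-like cells. S100a1 rose by 1.52 in D0 and 1.42 in D2, from 11.1 CPM in Ctrl to 27.4 and 27.5, and S100a13 rose by 0.98 in both, from 52.4 CPM to 89.4 and 95.7. S100b was at 0.35 and 0.97 and not called. In other classes S100a13 and S100a16 were at 420 ± 52.0 and 315 ± 61.5 CPM in endothelial-like cells (n = 8), and S100a1 and S100b at 418 and 227 CPM in the astroglial-like cells of the 1 library that held 20 of them.

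S100a8 and S100a9 were also found outside neutrophil-like cells, including in endothelial-, mural-, ependymal-, astroglial- and lymphoid-like cells, together called non-myeloid (81 to 391 cells per library). In each library their level in microglia-like cells was set beside that in non-myeloid cells, which should lack both genes. Over all cells, S100a9 was at 3.21, 16.6 and 7.39 CPM in microglia-like and 3.05, 9.77 and 3.96 CPM in non-myeloid cells of Ctrl. In D0 it was at 28.9, 96.6 and 32.1 CPM in microglia-like and 1042, 176 and 578 CPM in non-myeloid cells, and in D2 at 23.3 and 90.6 against 29.1 and 94.3 CPM. In CPM, all 5 treated libraries therefore had at least as much S100a9 in non-myeloid as in microglia-like cells. The mean log2 ratio of microglia-like to non-myeloid S100a9 was 0.35 in Ctrl and −3.40 in D0 (exact permutation p = 0.1, two-sided, the smallest possible), and it was −0.20 in D2 (p = 0.3). For S100a8 the differences from Ctrl were −4.87 in D0 (exact permutation p = 0.1) and −1.84 in D2 (p = 0.2), with 0.5 UMI added to each sum. The non-myeloid sums of Ctrl-1, Ctrl-2 and Ctrl-3 held only 0, 4 and 0 UMIs of S100a8 and 2, 4 and 3 of S100a9. The Ctrl ratios of both genes are therefore poorly measured, and those of S100a8 in Ctrl-1 and Ctrl-3 are set by the added 0.5 UMI.

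The high non-myeloid values came from a few barcodes. Barcodes with 10 or more UMIs of S100a8 and S100a9 together numbered 3 in D0-1, 1 in D0-2, 1 in D0-3 and 4 in D2-3 among non-myeloid cells, and they held 98.3%, 33.7%, 95.3% and 92.0% of those UMIs. Among microglia-like cells they numbered 0, 2 and 2 in Ctrl, 25, 32 and 7 in D0, and 2 and 0 in D2. Without such barcodes S100a9 in Ctrl was at 3.21, 6.09 and 2.45 CPM in microglia-like and 3.05, 9.77 and 3.96 CPM in non-myeloid cells. In D0 it was at 12.2, 81.6 and 16.9 against 20.1, 121 and 27.3 CPM, and in D2 at 19.96 and 90.6 against 29.1 and 94.3 CPM. In 7 of the 8 libraries, and in D2-3 (30.02 against 41.5 CPM), the CPM of S100a9 was then lower in microglia-like than in non-myeloid cells, and in Ctrl-1 the levels were 3.21 and 3.05 CPM. Microglia-like cells were the deeper set in each library, with medians of 5344 to 10447 UMIs against 3006 to 5394 UMIs over the 8. At equal S100a9 UMIs per cell the deeper set has the lower CPM, and UMIs per cell were not compared. The difference of the log2 ratio from Ctrl was −0.014 in D0 (exact permutation p = 1, two-sided) and 0.35 in D2 (p = 0.4). This limit on barcodes uses the genes themselves and was set after the values were seen.

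Shares of cells with S100a9 in the 2 sets were near each other in some libraries and apart in others, such as D0-1 and D2-1 after thinning. After thinning to 2000 UMIs, S100a9 was seen in 2.64%, 16.4% and 4.18% of microglia-like and 6.25%, 19.9% and 3.09% of non-myeloid cells of D0, and in 3.63% and 16.4% against 6.25% and 20.8% in D2. In Ctrl, S100a9 was seen in 0.787%, 1.52% and 0.381% of microglia-like and 0%, 3.70% and 0% of non-myeloid cells. Unthinned, the shares with S100a9 were 7.87%, 50.8% and 14.7% in microglia-like and 8.11%, 45.3% and 9.46% in non-myeloid cells of D0, whose median depths were 5344 to 10447 and 3006 to 4798 UMIs. The share was above that of non-myeloid cells in D0-3 after thinning and in D0-2 and D0-3 before it, where microglia-like cells were the deeper set, and below it in D0-1. How much of the S100a8 and S100a9 in microglia-like cells is their own transcript was not tested.

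**Figure D4:**
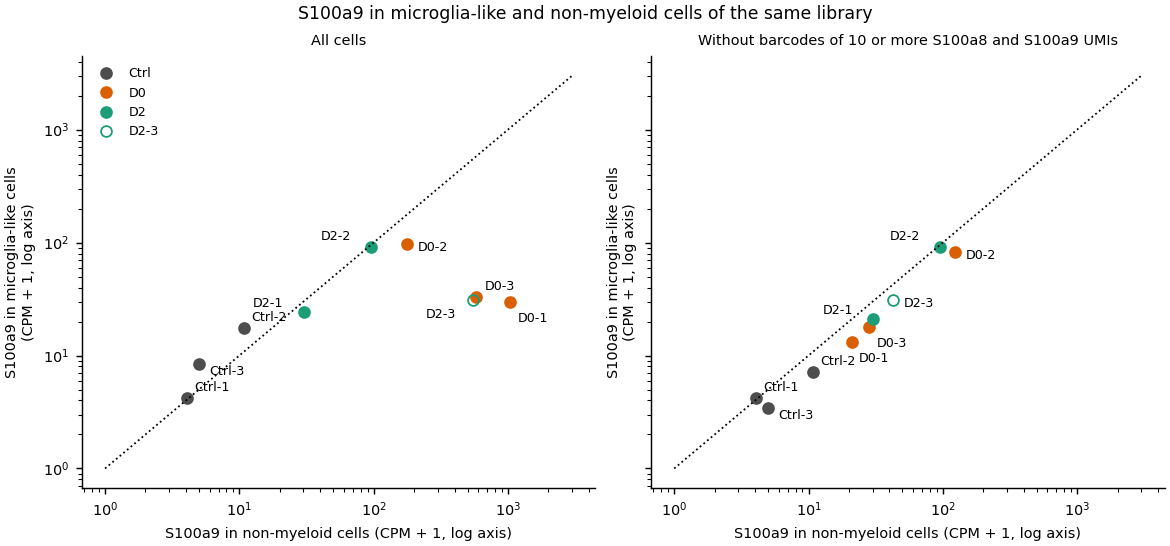
S100a9 in non-myeloid (x axis) and microglia-like cells (y axis) of the same library, CPM + 1 on log axes, over all cells (left) and without barcodes that hold 10 or more UMIs of S100a8 and S100a9 (right). Each point is 1 library and the dotted line marks equal levels. On the right all libraries but Ctrl-1 (3.21 against 3.05 CPM) lie below the line, from 2.45 CPM in Ctrl-3 to 90.6 CPM in D2-2 in microglia-like cells.

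S100a8 and S100a9 were near the ratio that they had in neutrophils in most libraries, with exceptions. S100a8 made up 38.4% to 43.6% of the S100a8 and S100a9 UMIs in neutrophil-like cells of the 8 libraries with 20 such cells and 37.5% to 45.5% in microglia-like cells, where the widest exact 95% binomial interval was 32.4% to 49.1%. In D0-1 the share of S100a8 was higher in microglia-like cells (43.5%, interval 40.4% to 46.7%) than in neutrophil-like cells (38.4%, 38.0% to 38.8%), and in D0-2 it was lower (39.6%, 38.3% to 40.8%, against 41.5%, 41.4% to 41.6%). In non-myeloid cells of the 5 treated libraries of the tests it was 37.5% to 42.1%, with intervals apart from those of neutrophil-like cells in D0-1 and D0-3, and in D2-3 it was 30.1% (26.1% to 34.3%) against 41.6%. In monocyte-like cells the share of S100a8 was higher in D2-1 (86.7%, 73.2% to 94.9%, against 40.0% in neutrophil-like cells). It was also higher there in D2-2 (67.2%, 60.8% to 73.2%, against 42.7%) and D0-2 (46.1%, 44.7% to 47.5%, against 41.5%). In Ctrl-2 and D0-1 the monocyte-like interval held the neutrophil-like share. The source of S100a8 and S100a9 in monocyte-like cells was not tested. Of 12 other neutrophil genes tested in microglia-like cells, 4 were called higher in D0 (12.2% of all genes were) and 3 in D2 (10.8%), with 0 lower and medians of 2.65 and 2.84. Up to 3 of the 12 were at 0 in a Ctrl library. Genes near 0 in Ctrl could pass the filter on low counts mainly where treated libraries were high. Their direction and calls are therefore not support. For 7 of these 12 genes, the level as a share of the neutrophil-like level was near that of both members in most libraries. Csf3r, Cxcr2, Il1r2, Hdc and G0s2 were left out of this share. Csf3r, unlike the members, was at log2 −0.11 in D0 and 0.12 in D2 in microglia-like cells and was not called. In the D0 library with the most, D0-2, microglia-like cells had 0.0536% of the neutrophil-like level of S100a8, 0.0581% of that of S100a9 and a median of 0.0456% over 7 other neutrophil genes (Retnlg, Lcn2, Mmp8, Mmp9, Ltf, Ngp and Camp). In D2-2 these were 0.0493%, 0.0544% and 0.0428%, in D2-1 0.0157%, 0.0150% and 0.0154%, and in Ctrl-1, which had 15 neutrophil-like cells, 0.00289%, 0.00262% and 0.00171%. D0-1 stood apart, with 0.0316% and 0.0257% for S100a8 and S100a9, above the highest of the 7 at 0.0231%.

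**Figure D5:**
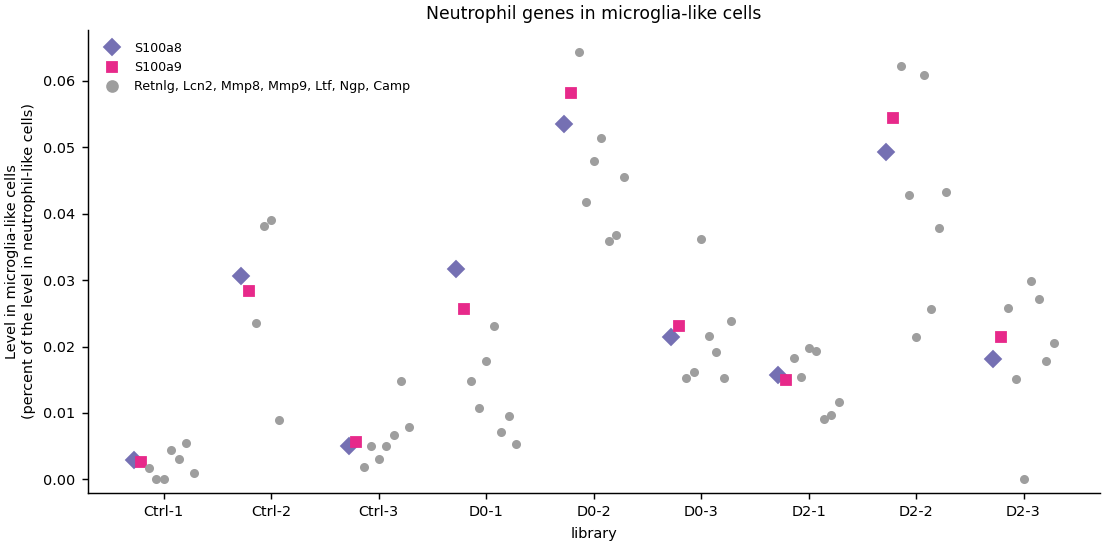
Level in microglia-like cells as a percent of the level in neutrophil-like cells (y axis, linear) for S100a8, S100a9 and 7 other neutrophil genes (grey, 4 of them in Ctrl-2) in the 9 libraries (x axis). The calprotectin genes lie within the range of these 7 other genes in all libraries but D0-1, and D0-2 and D2-2 are highest, at 0.0581% and 0.0544% for S100a9. Csf3r, Cxcr2, Il1r2, Hdc and G0s2 are not shown.

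The level of S100a9 also gives a scale for the other members, though the scale depends on the cells it is taken from. Microglia-like cells had 0.687% to 1.77% of the whole-library S100a9 level in the 8 libraries. At the same share, S100a4 would be at 0.111 to 0.865 CPM in Ctrl and 0.3002 to 1.15 CPM in D0 and D2, and its measured level was 1.54 to 14.6 times that in Ctrl and 16.9 to 48.1 times that in D0 and D2. S100a6, which neutrophils hold as well, was at 0.649 to 1.52 times this scale in Ctrl, 3.28 to 4.17 times in D0, and 6.80 and 10.4 times in D2. S100a10 was at 21.2 to 73.3 times and S100a11 at 3.11 to 12.6 times over the 8 libraries. This scale includes rich barcodes too. They held 67.4%, 67.7% and 58.8% of the S100a8 and S100a9 UMIs of microglia-like cells in Ctrl-2, Ctrl-3 and D0-1. Without them S100a9 was at 6.09 and 2.45 CPM in Ctrl-2 and Ctrl-3, beside 16.6 and 7.39 CPM with them. So the multiples in these libraries, those of S100a6 in Ctrl among them, depend on few barcodes. With the scale taken from S100a8 and S100a9 in non-myeloid cells, rich barcodes included, the S100a4 level it gives was 2.13% to 43.0% of the measured one in Ctrl, 224%, 5.09% and 69.3% in D0-1, D0-2 and D0-3, and 3.61% and 2.11% in D2. For S100a6 it was 20.6% to 102% in Ctrl, 1153%, 41.9% and 409% in D0, and 19.1% and 9.74% in D2. So S100a4 in D0-1 and S100a6 in D0-1, D0-3 and Ctrl-2 were not above that scale, and neither were S100a10 in D0-1 (166%) and S100a11 in D0-1 (932%) and D0-3 (502%). In D0-1 and D0-3, 3 and 1 rich barcodes held 98.3% and 95.3% of the UMIs that set this scale. There it came to 67.2% and 11.7% of the library profile, so it cannot say whether a member was above free RNA. Neither scale is given without rich barcodes. Endothelial-like cells had S100a4 at 0, 0 and 2.05 CPM in Ctrl, 3.19, 9.39 and 6.56 CPM in D0, and 7.70 and 6.57 CPM in D2, on 0 to 6 UMIs a library, below the microglia-like level in each treated library. In D2-1 the S100a4 levels were 10.8 and 7.70 CPM, which does not separate them at 5 endothelial-like UMIs.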

How the data were processed

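Live CD11b+ cells of 9 libraries were profiled by 10x 3′ single-cell RNA-seq. The authors made the deposited raw UMI counts with Cell Ranger on mm10, and the file headers give version 3.1.0 for D2-3 and all Ctrl libraries but Ctrl-1, and 3.0.2 for the other 6. Of 36391 barcodes, 30463 passed the study's limits (500 to 20000 UMIs, at least 200 genes, at most 10% mitochondrial UMIs).

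The 8 libraries without D2-3, which the study left out, were clustered with scanpy 1.11.5 and leidenalg 0.10.2 (3000 variable genes without S100 genes, 10 principal components, 20 neighbours, resolution 0.6), and D2-3 was placed by 30 nearest neighbours. Scrublet marked 94 of 30463 cells (0.3086%), too few to have worked, so no doublets were removed and removal of the top 4% of scores was an alternative.

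UMIs were summed per class and library with at least 20 cells and tested in one fit of the 3 groups with edgeR 4.0.16 (R 4.3.3, quasi-likelihood test, TMM, filterByExpr), with Benjamini-Hochberg adjustment over all genes tested and a threshold of 0.05. The fit was tested on simulated data. DESeq2 1.42.0 was an alternative. Intervals of sums are exact Poisson and those of shares exact binomial, at 95%, and cover counting error only. Single values were compared by exact two-sided permutation tests over libraries, whose smallest p is 0.1. The libraries of a group came from separate mice or pairs of mice, so p-values measure the spread between these. Named genes are the 6 members, members of fixed partner, receptor, other S100 and neutrophil lists, and the 3 genes most like each member by Pearson's r of log2(CPM + 10). The members and lists were chosen with earlier results of these data known. Replicate numbers were not used as pairs in the main fits.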

Additional observations from a re-analysis of the deposited data

Results flagged for a closer look

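D2-3, the library that the study left out, was flagged because its level in microglia-like cells was above every Ctrl library for all 6 genes. It held 608 such cells, of which 533 fell in the mitotic cluster. S100a4 was at 37.0 CPM (exact 95% Poisson interval 32.4 to 42.1, highest Ctrl library 1.63), and S100a6 was at 27.3 CPM (23.4 to 31.7, highest Ctrl 1.60). S100a10 was at 37.4 CPM (32.7 to 42.5, highest Ctrl 14.1), above all other libraries, and S100a11 was at 9.10 CPM (6.89 to 11.8, highest Ctrl 5.82). S100a8 was at 18.04 CPM (14.9 to 21.7, highest Ctrl 13.9) and S100a9 at 30.02 CPM (25.9 to 34.6, highest Ctrl 16.6), with non-myeloid cells of the same library at 41.5 CPM of S100a9 without S100a8- and S100a9-rich barcodes.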

How the results depend on the processing

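The 6 members were called higher in D0 in microglia-like cells. The count was 2 with D2-3 included, 2 with no upper UMI limit, 3 without mitotic clusters and 2 of 3 tested in strict cells (no UMI of other classes' markers), and 3 to 6 when 1 library was left out (3 without Ctrl-3 or D0-2). The D2 count of 5 became 3 with Cell Ranger version as a term, 2 with no upper UMI limit, 3 without mitotic clusters, 2 of 3 in strict cells, 2 in all kept myeloid cells and 3 to 6 with 1 library left out (3 without Ctrl-1, Ctrl-3 or D2-2). In all kept myeloid cells S100a4 was not called (1.70 and 1.73, adjusted p = 0.124 and 0.154), and S100a6 was not called in D2 (2.04, adjusted p = 0.0696). In other classes the 3 calls of 64 became 5 with DESeq2, 25 of 72 with no filter on low counts, 17 with the replicate block, 0 with D2-3 included and 0 to 13 with 1 library left out. The cause was not tested.

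Uncalled D2 to D0 values in microglia-like cells changed sign. With 1 library left out, S100a4 ran from −0.84 (without D2-2) to 1.59, S100a6 from −0.77 to 1.73, S100a11 from −0.35 to 0.13, S100a8 from −1.29 to 0.78 and S100a9 from −1.33 to 0.84. S100a6 was −0.11 in all kept myeloid cells and S100a10 was 0.28 with D2-3 included. S100a11 was 0.019 with the top 4% of Scrublet scores removed and 0.14 in relaxed strict cells. S100a8 was 0.014 with DESeq2, 0.022 with upper-quartile scaling, 0.014 with only the groups compared, 0.14 by Scrublet removal, 0.29 without mitotic clusters, 0.021 in strict and 0.65 in relaxed strict cells. S100a9 was 0.0027, 0.018, 0.0090, 0.11, 0.26 and 0.54 under the same settings in that order, strict cells apart. The S100a9 ratio of D2 to Ctrl reversed from −0.55 to 0.35 without barcodes of 10 or more S100a8 and S100a9 UMIs.

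Same-numbered libraries had correlations of deviations from −0.130 to 0.420, over 0.1 in 4 of 7 pairs. Libraries of other numbers and groups ran from −0.387 to 0.348. These values do not settle whether the numbers mark pairs, and the main fits did not use them as pairs. With the replicate block all 6 members were called in both microglia comparisons. In endothelial-like cells S100a4 rested on 0 to 6 UMIs a library, which limits what could be detected there.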
